A study of Homo sapiens with 6 samples.

Results

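POU2F3, ASCL2, SOX9, NFIB and FOXA1 are transcription factor genes tied to the tuft cell variant of small cell lung cancer (SCLC) or other lineages. Their chromatin was described in the SCLC line H69M and in NCI-H69, called H69 here, from which H69M was derived. Members were all peaks that overlapped the hg19 span of 1 of the 5 genes or the 10 kb on either side of it, 87 of the 148837 peaks listed on chromosomes 1 to 22 and X. The H69M lists gave 26 H3K27ac and 27 H3K27me3 peaks, and the H69 lists gave 17 of each mark.

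Chromatin was immunoprecipitated and sequenced (ChIP-seq) with an antibody against H3K27ac (Abcam, ab4729) or H3K27me3 (Cell Signaling Technologies, clone C36B1) in each line, in a study concerned with the immunogenicity of SCLC cells. Each of the 4 groups, H69M H3K27ac, H69M H3K27me3, H69 H3K27ac and H69 H3K27me3, holds 1 library, and an input library of each line was not analysed here. H69M is a single derived line, and the labels give no agent for either line. Because every group is a single library, the variation between cultures is not known, no test was possible, and no difference below has a replicate check. The lists carry no read counts, so depth is unknown.

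H3K27ac is a mark of active promoters and enhancers, and H3K27me3 is laid down by Polycomb repressive complex 2 over silent genes. POU2F3 is the octamer-binding factor that tuft cells, chemosensory cells of the airway and gut, require to form, and it defines a subtype of SCLC that lacks neuroendocrine genes. ASCL2 is a basic helix-loop-helix factor of intestinal stem cells and SOX9 a factor of progenitor cells in lung, gut and cartilage. NFIB promotes metastasis in mouse SCLC, and FOXA1 is a pioneer factor that opens chromatin in endodermal tissues. Positions of other tuft cell or neuroendocrine genes on hg19 were not used here, so the identity of the lines was not checked against other markers.

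The 5 loci fell into those with H3K27me3 and those without, and each locus had the same status in both lines. H3K27me3 was listed at POU2F3 and ASCL2 in H69M and in H69 and at no other of the 5 loci in either. H3K27ac was listed within 1 kb of the 5′ end of the span, called the start here, at ASCL2, SOX9 and FOXA1 in both lines. The start of POU2F3 and that of NFIB had neither mark within 1 kb in H69M or H69. For NFIB, which has several promoters, this holds for the 5′ end of the hg19 span only. ASCL2 was the only one of the 5 with both marks within 1 kb of its start, again in both lines.

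**Figure D1:**
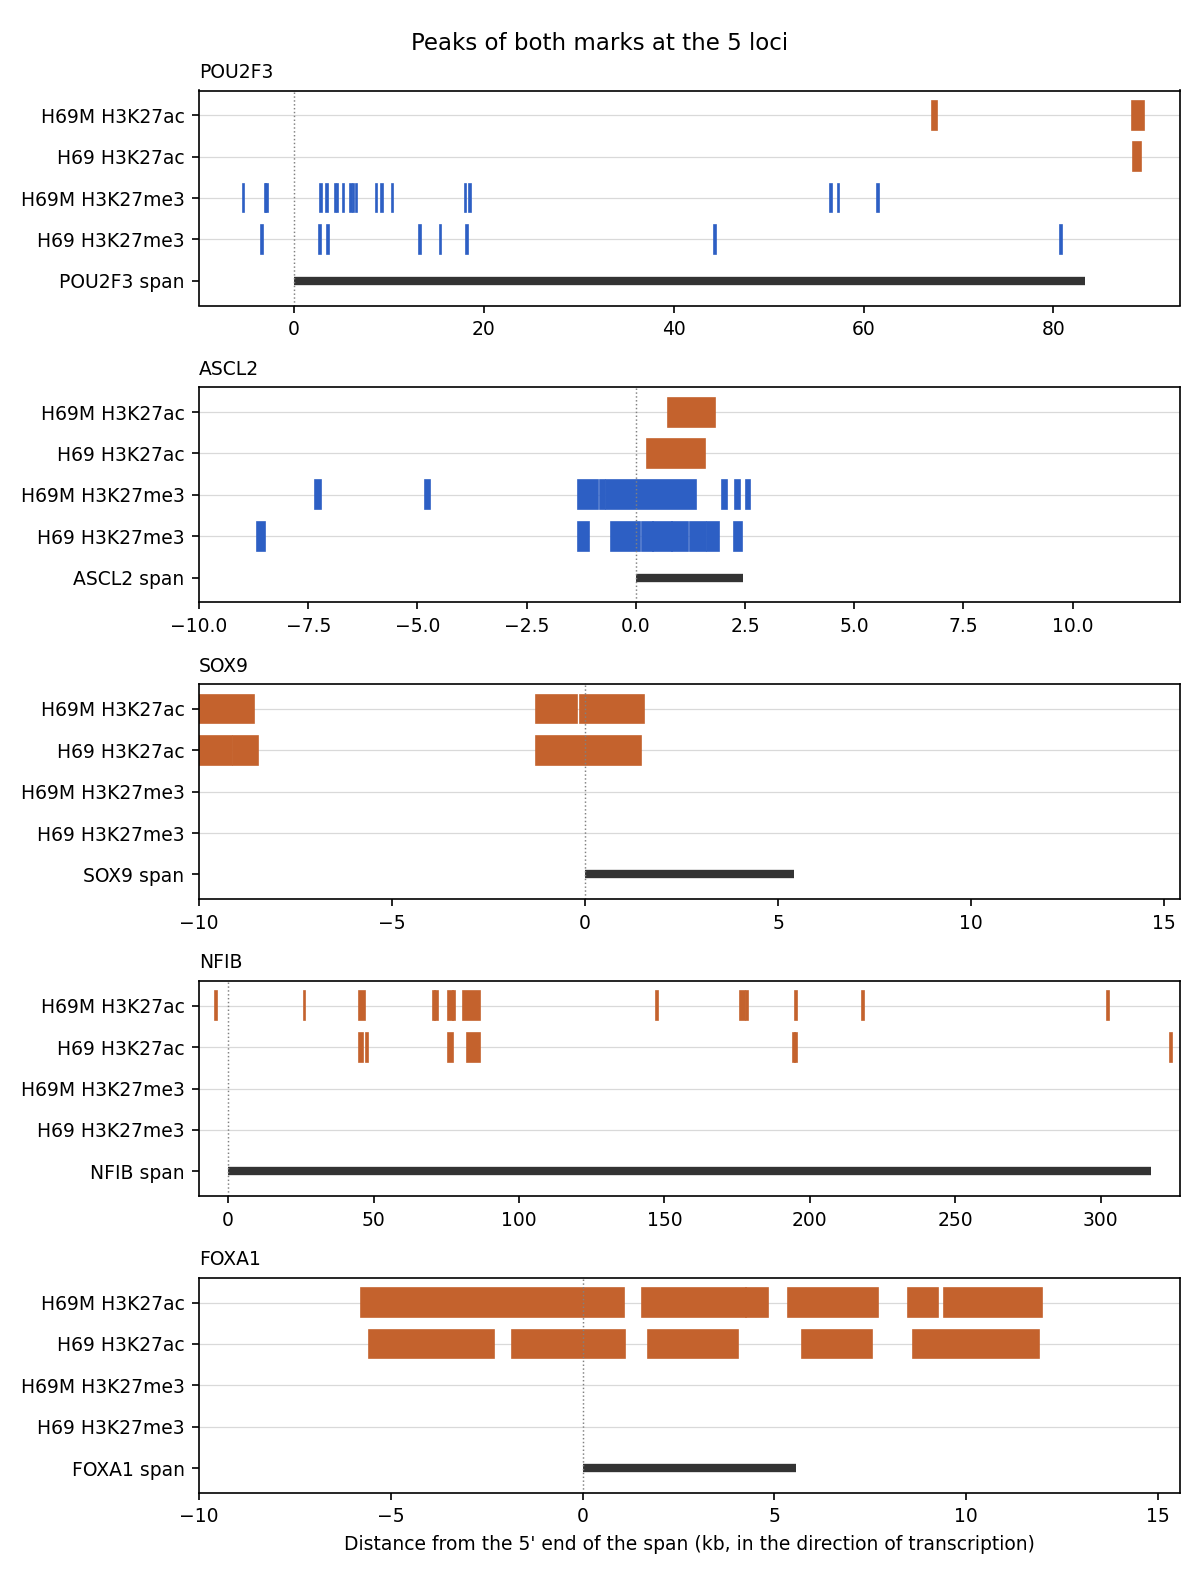
Position of every peak at the 5 loci against distance from the 5′ end of the gene span in kb, with H69M above H69 for each mark and the span as a black bar; each block is 1 peak, outlined so that narrow peaks stay visible. H3K27me3 blocks appear at POU2F3 and ASCL2 and at none of the other loci, and H3K27ac blocks cover most of the FOXA1 locus.

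POU2F3 (chromosome 11, 120107349 to 120190653, plus strand) had scattered H3K27me3 peaks with low scores and no H3K27ac peak at its start. H3K27me3 peaks were narrow throughout, with a median width of 156 bp in the whole H69M list and 185 bp in the whole H69 list. The lists do not show how far the mark extends between such peaks or below their threshold. H69M had 19 H3K27me3 peaks over 3012 bp and H69 had 8 over 1354 bp, a ratio of 2.22 against 1.62 over all H3K27me3 peaks. The ratio was 1.20 when the lists were brought to equal numbers of peaks. The authors' peak scores, which start at 50 in these lists, ran from 50.5 to 173 in H69M and from 52.7 to 80.9 in H69. Scores under 100 were given to 17 of the 19 peaks in H69M and to all 8 in H69.

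The listed H3K27me3 peaks lay mostly in the first 20 kb of the POU2F3 span, where H69M had 13 peaks over 2162 bp and H69 had 5 over 821 bp. In the other 63305 bp of the span H69M had 3 peaks over 469 bp and H69 had 2 over 359 bp. The highest scoring H3K27me3 peak of H69M lay at 120110678 to 120110933, 3329 to 3584 bp from the start (score 173), and overlapped a 156 bp peak of H69 with a score of 52.7. The highest in H69 lay at 120122705 to 120122858, 15356 to 15509 bp from the start (score 80.9), and had no counterpart. Peaks nearest the start lay 2765 bp inside the gene in H69M and 2612 bp in H69 and overlapped by 58 bp. In all, 3 of the 19 H69M peaks and 3 of the 8 H69 peaks had a counterpart, and only 150 bp were covered in both lines. The 16 H69M peaks and 5 H69 peaks without a counterpart stand beside 81.1% of all H69M and 67.4% of all H69 H3K27me3 peaks, so the few shared positions say nothing particular about POU2F3.

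The only H3K27ac peak shared at POU2F3 lay beyond the gene. It ran from 120195647 to 120196850 in H69M (score 810) and from 120195736 to 120196572 in H69 (score 576), starting 4994 bp past the span in H69M and 5083 bp past it in H69. In RefSeq TLCD5 is the next protein-coding gene on that side and lies within 10 kb of POU2F3. The shared peak may therefore belong to either gene. H69M had 1 further H3K27ac peak, at 120174575 to 120175073 within the gene, with a score of 50.5, at the bottom of the list. The nearest H3K27ac upstream of the start was 24995 bp away in H69M and 67045 bp away in H69. This H69M peak, at 120081228 to 120082354 (score 84.9), lay outside the locus and overlapped an H69M H3K27me3 peak at 120082165 to 120082354 (score 66.8).

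Farther upstream, between 10 and 100 kb from the span, H69M had 20 H3K27me3 peaks over 3509 bp and H69 had 2 over 319 bp. Both H69 peaks had a counterpart in H69M. These H69M peaks were weak, with scores from 50.8 to 119. OAF is the nearest protein-coding neighbour upstream in RefSeq and lies within 10 kb of POU2F3, so these peaks may belong to other genes. With 100 kb on each side of POU2F3, this ground included, the H3K27me3 ratio was 3.90.

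ASCL2 (chromosome 11, 2289728 to 2292182, minus strand) had the strongest H3K27me3 of the 5 loci in both lines and was acetylated on the same ground. In H69M 1 peak from 2290814 to 2292867, 2054 bp wide, covered the start with a score of 1272, the 86th highest of the 37853 H3K27me3 peaks of that list. In H69 the highest scoring peak, from 2292081 to 2292755 and 675 bp wide, also covered the start and had a score of 281, the 313th of 21638. Ranks in lists of unequal length do not show a change.

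The wide H69M peak overlapped 5 H69 peaks, which shared 1848 of its 2054 bp. Peaks separated by no more than 100 bp joined into a run of 3 peaks from -1335 to 1368 bp around the start in H69M and into a run of 6 peaks from -573 to 1910 bp in H69. These runs were of similar length, 2704 bp in H69M and 2484 bp in H69, and their ends depend on the joining gap. H69 had a separate peak from -1334 to -1064 bp, level with the upstream end of the H69M run. Deeper in the gene than the H69 run, H69M had separate peaks from 1972 to 2080 bp and from 2274 to 2376 bp. H69 also had a separate peak there, from 2250 to 2429 bp, which contained the latter H69M peak. Over the whole locus H69M had 8 H3K27me3 peaks over 3238 bp and H69 had 9 over 3015 bp, a ratio of 1.07. This ratio fell on the other side of 1, at 0.919, with equal numbers of peaks and at 0.801 over the span alone. Of the 12215 windows of the same length along the genome with any H3K27me3 in H69M, 342 were covered over at least as great a length as ASCL2, and in H69 this held for 128 of 9635. These windows were cut at fixed positions and can split a marked stretch, whereas the locus is centred on its gene. Such counts therefore do not show how rare this coverage is.

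H3K27ac at ASCL2 was a single weak peak in each line. It ran from 2290375 to 2291442 in H69M, 740 to 1807 bp downstream of the start, with a score of 108. In H69 it ran from 2290588 to 2291922, 260 to 1594 bp downstream, with a score of 140. The 2 peaks overlapped by 855 bp, and the H69M peak lay farther from the start. H3K27me3 covered 629 bp of the 1068 bp H3K27ac peak in H69M (58.9%) and 1286 bp of the 1335 bp peak in H69 (96.3%). Cells that carry the 2 marks at once cannot be told apart from a mixture of cells that carry 1 each, and more marked cells cannot be told apart from more mark per cell. The RefSeq ASCL2 gene is 364 bp shorter than the hg19 span used, so its start may differ from the one used here by up to that length.

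ASCL2 held the only H3K27ac peaks at the 5 loci that overlapped H3K27me3, 1 of 26 in H69M and 1 of 17 in H69. Over the whole H3K27ac lists 1.56% of the peaks in H69M and 0.805% of those in H69 overlapped H3K27me3 of the same line. The counts at the 5 loci are too small to be set apart from these shares.

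**Figure D2:**
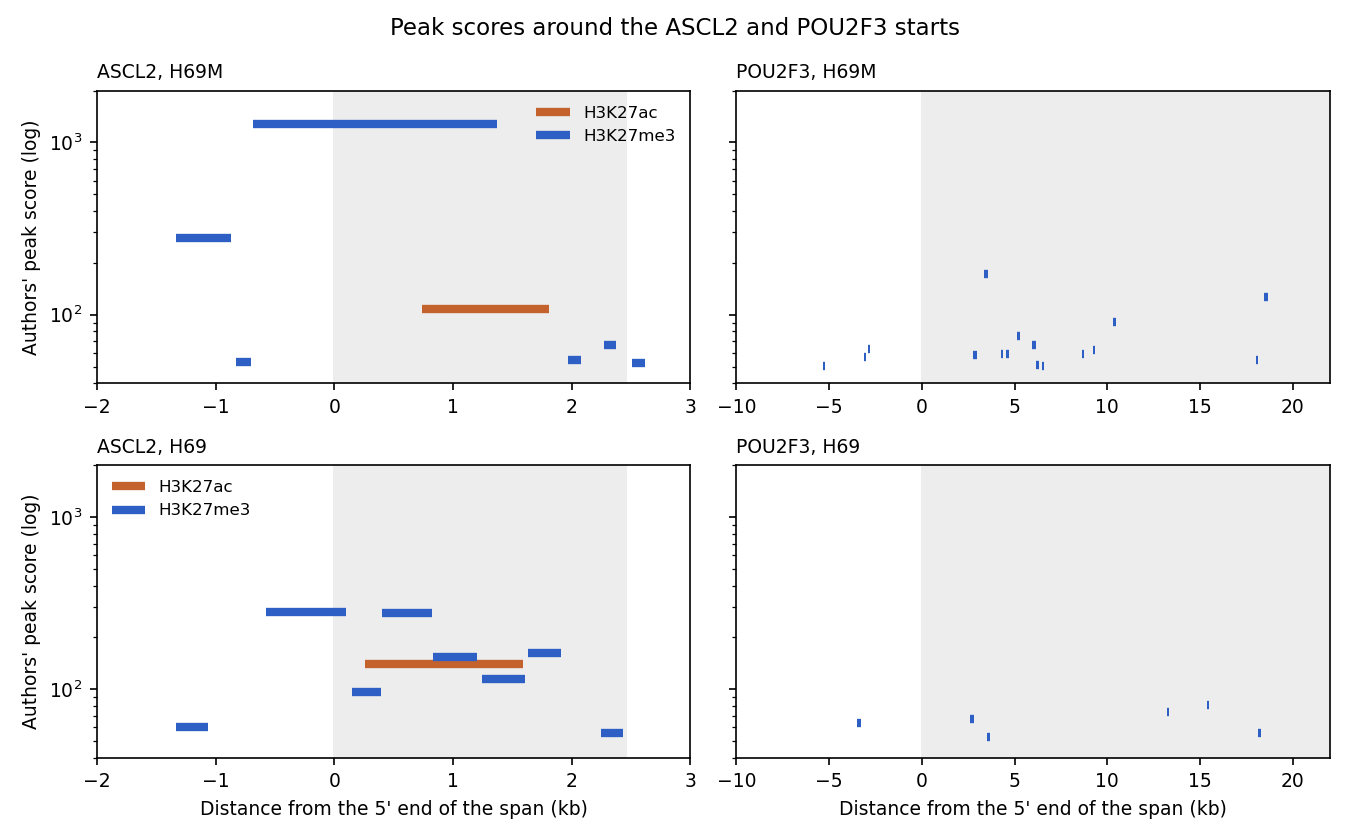
Authors' peak score on a log axis against distance from the 5′ end of the span in kb, for ASCL2 (left, -2 to 3 kb) and POU2F3 (right, -10 to 22 kb), H69M in the upper row and H69 in the lower row; each line is 1 peak drawn over its width, the gene span is shaded, and peaks outside these ranges are not shown. The H69M peak over the ASCL2 start has a score of 1272, the highest H69 piece 281, and the POU2F3 peaks stay at or below 173 in H69M and 80.9 in H69.

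Taking POU2F3 and ASCL2 together, 6 of the 27 H3K27me3 peaks of H69M had a counterpart in H69 (22.2%, exact 95% binomial interval 8.62 to 42.3, for counting error only). The 21 without one make up 77.8%, close to the 81.1% of all H69M H3K27me3 peaks. In H69, 10 of 17 peaks had a counterpart in H69M (58.8%, interval 32.9 to 81.6), and 7, or 41.2%, had none, against 67.4% of all H69 peaks. Neighbouring peaks are not independent, and 5 of the 10 overlapped the 1 wide H69M peak at ASCL2. The H69 share also depended on the rule. It was 35.3% when the overlap had to reach 50% of the shorter peak and 47.1% with equal numbers of peaks. When a peak of the other line within 1000 bp counted, it was 70.6%. Shares over all peaks were not computed at these settings.

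SOX9 (chromosome 17, 70117161 to 70122560, plus strand) was acetylated over its start in both lines and had no listed H3K27me3 peak in either. In H69M a peak from 70117033 to 70118679, from -128 to 1518 bp around the start, had a score of 3100, at which scores pile up. This value is called the ceiling here, although H3K27ac scores reach 3233 in both lists. Ceiling peaks of the whole lists are those with a score of 3100 or more. A second H69M peak from 70115885 to 70116949 had a score of 348. In H69 1 peak covered the same ground, from 70115890 to 70118609, or -1271 to 1448 bp, with a score of 2446. H69M and H69 were covered over 4127 bp and 4219 bp of the locus, a ratio of 0.978 against 1.59 over all H3K27ac peaks, and 4026 bp were covered in both.

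At the upstream edge of the 25.4 kb locus H69M had 1 peak, from 70106975 to 70108575 (score 228), where H69 had 2, from 70106949 to 70108018 (score 236) and from 70108045 to 70108685 (score 235). The edge of the locus cut the H69M peak and the first H69 peak. A further H69 peak, at 70106298 to 70106832 with a score of 223, ended just outside the locus. All 3 H69M peaks and all 3 H69 peaks of the locus had a counterpart.

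The lines differed at distant sites around SOX9, a gene known for enhancers far from its promoter. Whether these sites act on SOX9 was not tested. Between 10 and 100 kb from the span H69M had 7 H3K27ac peaks over 14.8 kb and H69 had 4 over 3.25 kb. Downstream of the gene H69M had 4 peaks over 8.50 kb and H69 had none. The strongest of them lay at 70167152 to 70170523, 50.0 to 53.4 kb from the start, with a score of 1429, and the others lay at 70154190 to 70156277 (531), 70171033 to 70173513 (340) and 70139394 to 70139955 (80.8). These 4 peaks were described after their values were seen. Of the 4, 3 had a score of 300 or more, and 19.4% of the H69M H3K27ac peaks with such a score had no H69 counterpart in the whole list.

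Upstream of SOX9, at about 90 kb, both lines were acetylated. H69M had a 3072 bp peak at 70025685 to 70028756 with a score of 1633, which overlapped 2 H69 peaks of 972 bp (score 575) and 583 bp (score 97.4). H69M had a further peak beside it without a counterpart, at 70029867 to 70032404 (2538 bp, score 379). Nearer the gene, H69 had a peak without a counterpart at 70049085 to 70050247 (score 398), and H69M had a weak one at 70077907 to 70078586 (score 69.5). With 100 kb on each side the SOX9 ratio was 2.49, above 1, whereas it was 0.978 within 10 kb. SLC39A11 is the next protein-coding gene downstream and KCNJ2 the next upstream in RefSeq.

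NFIB (chromosome 9, 14081842 to 14398982, minus strand) was acetylated deep inside the hg19 span and not at the 5′ end of that span. Distance from this end does not show whether a peak lies at an NFIB promoter. Peaks with the ceiling score of 3100 numbered 2 in H69M, at 14312536 to 14318114 (5579 bp) and 14321724 to 14323549 (1826 bp), and 2 in H69, at 14312383 to 14316847 (4465 bp) and 14321834 to 14323399 (1566 bp). They lay 75.4 to 86.4 kb from the start in H69M and 75.6 to 86.6 kb in H69, and each overlapped its counterpart, over 4312 bp and over 1566 bp. They were separated by 3.61 kb in H69M and by 4.99 kb in H69. No H3K27ac lay within 1 kb of the start in either line, and the nearest peak was 3899 bp upstream in H69M and 38231 bp upstream in H69.

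NFIB has several promoters, and whether the 5′ end of the hg19 span stands for any of them was not determined. The RefSeq gene is 133094 bp longer than that span. RefSeq gives 10 NFIB start sites on GRCh38.p14, of which 4 have 30 or more CpG among the 300 bases from 250 before to 50 after the start and the other 6 have at most 11. Of these 4, 3 lie within 0.908 kb of each other and 1 lies 7.43 kb upstream of them. Of the 10 starts, the most upstream stands apart, and the others lie 210 to 351 kb downstream of it. If the 3′ end of the gene is the same in both builds, none of the 10 lies at the 5′ end of the hg19 span. Positions on GRCh38 were not carried over to hg19, so the start sites were not placed on the peaks. The most CpG-rich promoter of the group of 3 (48 CpG, chr9:14314092-14314391) and the upstream one (37 CpG, chr9:14322338-14322637), both from RefSeq on GRCh38.p14, minus strand, are shown as examples of CpG-rich NFIB starts. The centres of the 2 ceiling peaks lay 7.31 kb apart in H69M and 8 kb apart in H69. These distances stand beside the 7.43 kb between the group of 3 starts and the upstream one. The printed GRCh38 positions of both promoters fall within the hg19 coordinates of the ceiling peaks in H69M and in H69. The offset between the builds was not determined, so whether the ceiling peaks lie on these starts was not tested. The pair of ceiling peaks holds 40.5% of the acetylated length of the locus in H69M and 63.4% in H69. Both sequences are printed 5′ to 3′ with no capitals, since none of the motifs named at FOXA1 was found in them.
NFIB, 48 CpG: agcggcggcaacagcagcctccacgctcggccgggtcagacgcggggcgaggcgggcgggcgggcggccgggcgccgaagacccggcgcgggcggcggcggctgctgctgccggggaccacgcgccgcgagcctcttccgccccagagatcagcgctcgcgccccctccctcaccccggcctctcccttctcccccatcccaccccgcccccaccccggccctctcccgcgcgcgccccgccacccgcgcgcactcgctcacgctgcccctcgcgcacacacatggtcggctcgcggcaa
NFIB, 37 CpG: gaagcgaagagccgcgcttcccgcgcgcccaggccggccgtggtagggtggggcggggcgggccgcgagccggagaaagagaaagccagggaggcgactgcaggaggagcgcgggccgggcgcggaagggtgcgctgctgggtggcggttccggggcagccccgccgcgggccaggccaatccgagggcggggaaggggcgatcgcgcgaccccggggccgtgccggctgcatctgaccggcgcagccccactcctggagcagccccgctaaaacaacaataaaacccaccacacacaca

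Outside the pair of ceiling peaks NFIB had 12 H3K27ac peaks over 10.9 kb in H69M and 5 over 3.48 kb in H69. In H69M 10 of the 14 peaks had no H69 counterpart, against 48.4% of all H69M H3K27ac peaks, and in H69 3 of 7 had none, against 22.5% of all H69 peaks. The 10 H69M peaks without a counterpart had scores from 68.98 to 449. In the whole H69M list 65.1% of the peaks with scores from 100 to under 300 and 79.7% of those under 100 had no counterpart either. The 3 H69 peaks had scores of 93.6, 91.4 and 54.5. The highest scoring of the H69M peaks without a counterpart lay beside a ceiling peak, at 14320835 to 14321715, and the next highest lay at 14096028 to 14096962 (score 249), toward the 3′ end, and at 14221421 to 14223061 (score 215).

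A shared site at 45 kb from the start was wider in H69M, from 14351994 to 14354117 (2124 bp, score 575), than in H69, from 14352714 to 14353966 (1253 bp, score 215). At 195 kb the H69M peak, 712 bp wide, had a score of 166 and the H69 peak, 670 bp wide, a score of 209. Over the locus H3K27ac covered 18287 bp in H69M and 9516 bp in H69, a ratio of 1.92 against 1.59 over all peaks. Of the H69M length 42.5% was also covered in H69, and of the H69 length 81.7% was covered in H69M.

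FOXA1 (chromosome 14, 38058757 to 38064325, minus strand) was the most acetylated of the 5 loci for its length. H3K27ac covered 61.9% of its 25.6 kb in H69M (15832 bp, 6 peaks) and 53.4% in H69 (13662 bp, 5 peaks), a ratio of 1.16. Among the 29624 windows of this length with any H3K27ac in H69M, 114 were covered over at least as great a length, and in H69 114 of 22988 were. The windows were cut at fixed positions, as at ASCL2, so these counts do not show how rare such coverage is. In H69M 4 of the 6 peaks and in H69 all 5 stood at the ceiling of 3100, so their strength cannot be ranked.

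The start of FOXA1 lay under a single 6862 bp peak in H69M, from 38063239 to 38070100, or -5775 to 1086 bp around the start. In H69 that ground was split into 2 peaks, from 38063214 to 38066170 (2957 bp) and from 38066647 to 38069901 (3255 bp). Inside the gene H69M had a peak from 38060070 to 38062774 and H69 one from 38060269 to 38062620. Around and beyond the 3′ end H69M had ceiling peaks at 38056623 to 38058976 and 38052336 to 38054905, and H69 at 38056781 to 38058597 and 38052436 to 38055716. The remaining H69M peaks were weak, at 38059501 to 38060060 (score 67.7) and 38055065 to 38055845 (score 145), and the first had no counterpart. All other peaks of the locus had one, and over the whole lists 1.49% of the ceiling peaks in H69M and 0.117% of those in H69 had none. Of the H69 length 98.7% was also covered in H69M. TTC6 is the neighbouring protein-coding gene upstream of FOXA1 and lies within 10 kb of it in RefSeq, so the peaks upstream of the start may belong to either gene.

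The FOXA1 promoter is shown because both lines had a ceiling H3K27ac peak across it. The RefSeq sequence comes from GRCh38.p14 (chr14:37595200-37595499, minus strand), where the gene is 129 bp longer than the hg19 span, and the peaks reach at least 1086 bp on either side of the start. The 300 bases hold 34 CpG, more than 84.4% of the 35116 RefSeq promoters. Core motifs of the 5 factors were searched on both strands, and matches are in capitals: forkhead TGTTTAC or TGTTTGC, SOX ACAAAG or ACAATG, octamer ATGCAAAT, E-box CAGCTG and NFI half-site TTGGCA.
FOXA1: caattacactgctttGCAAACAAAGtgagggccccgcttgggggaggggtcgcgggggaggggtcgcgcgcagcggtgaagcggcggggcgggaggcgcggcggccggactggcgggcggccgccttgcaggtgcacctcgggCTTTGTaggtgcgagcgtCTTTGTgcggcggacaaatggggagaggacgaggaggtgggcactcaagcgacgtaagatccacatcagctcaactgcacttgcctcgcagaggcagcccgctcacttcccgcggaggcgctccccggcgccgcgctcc

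The FOXA1 promoter held 1 forkhead match and 3 SOX matches, and the forkhead match overlapped a SOX match. At least 1 forkhead match was found in 7.17% of the RefSeq promoters and at least 1 SOX match in 24.5%. The octamer motif, found in 1.77% of promoters, the E-box, found in 17.9%, and the NFI half-site, found in 12.5%, were not among these letters. These motifs were chosen with the FOXA1 sequence in view, and a match does not show binding.

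**Figure D3:**
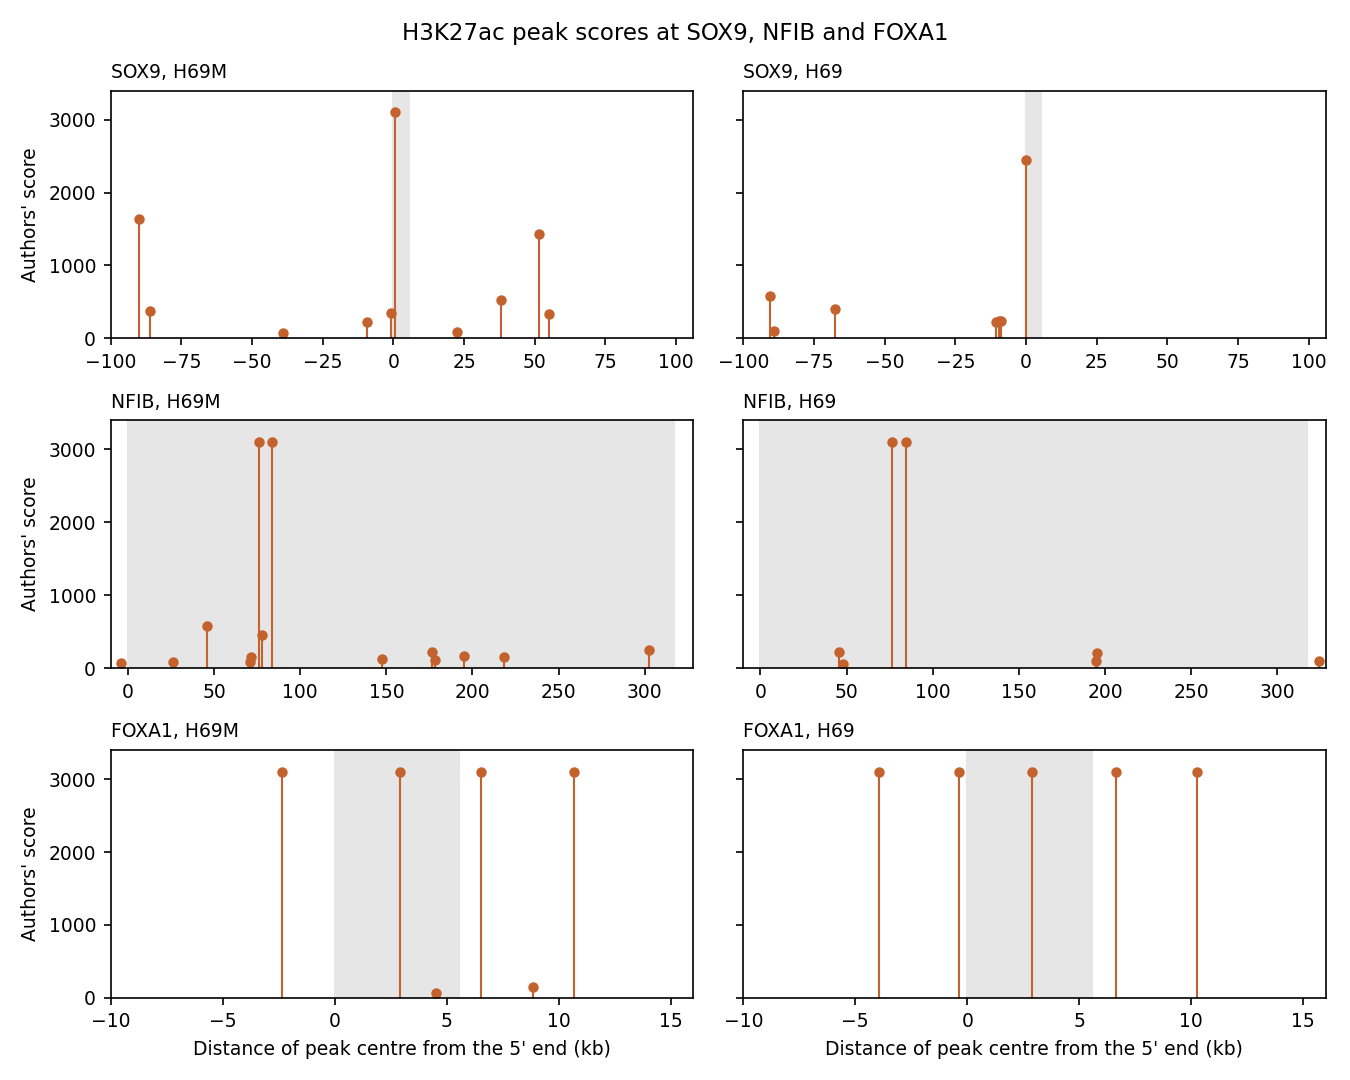
Authors' H3K27ac score of each peak against the distance of its centre from the 5′ end of the span in kb, for SOX9 with 100 kb on each side and for NFIB and FOXA1 with 10 kb, H69M on the left and H69 on the right; each point with its stem is 1 peak and the gene span is shaded. H69M has 4 points downstream of SOX9, up to a score of 1429, where H69 has none, and both lines have ceiling points 75 to 87 kb inside NFIB.

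SOX9, NFIB and FOXA1 lay far from any H3K27me3 peak. The nearest one to the SOX9 span was 1371 kb away in H69M and 1382 kb away in H69, the nearest to NFIB was 468 kb away in H69M and 410 kb in H69, and the nearest to FOXA1 was 3277 kb away in H69M and 1085 kb in H69. Absence of a listed peak of the mark from such a window was the usual case. Among windows of the SOX9 length 9.75% held an H3K27me3 peak in H69M and 7.69% in H69, among windows of the FOXA1 length 9.80% in H69M and 7.73% in H69, and among windows of the NFIB length 37.9% in H69M and 33.6% in H69.

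Across the 5 loci H3K27ac covered 41.0 kb in H69M and 29.6 kb in H69, a ratio of 1.39, and H3K27me3 covered 6.25 kb in H69M and 4.37 kb in H69, a ratio of 1.43. The ratios over all peaks were 1.59 for H3K27ac (76.8 Mb in H69M and 48.2 Mb in H69) and 1.62 for H3K27me3 (7.96 Mb in H69M and 4.91 Mb in H69). Whether the 5 loci lay below or above them depended on the flank, since with 100 kb on each side their ratios were 1.60 for H3K27ac and 1.75 for H3K27me3, and over the spans alone that for H3K27ac was 1.67. With equal numbers of peaks the H3K27me3 ratio was 1.01. The loci differed among themselves. The H3K27ac ratio was 2.03 at POU2F3, 1.92 at NFIB, 1.16 at FOXA1, 0.978 at SOX9 and 0.80 at ASCL2. At POU2F3 it was 1.44 with scores of 100 or more and 1.44 with equal numbers of peaks. Both settings drop the H69M peak with a score of 50.5 and leave only the shared peak beyond the gene. That shared peak holds all 837 bp of H69 and 1204 of the 1703 bp of H69M, and it may belong to TLCD5. Within the POU2F3 span H69 had no H3K27ac. At POU2F3 866 bp were covered in H69M alone and 0 bp in H69 alone, and at NFIB 10513 bp were covered in H69M alone and 1742 bp in H69 alone.

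**Figure D4:**
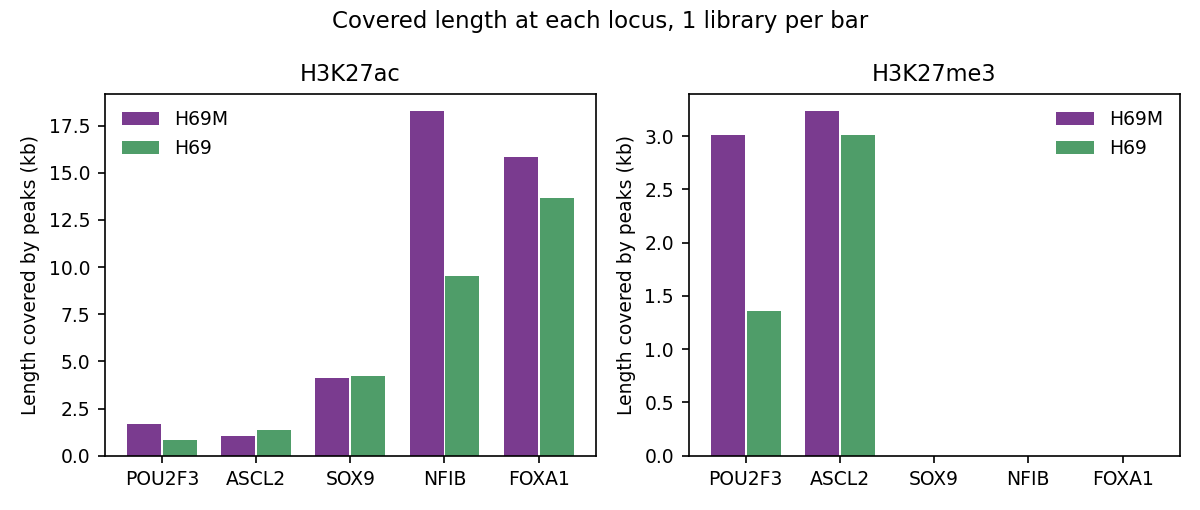
Length covered by peaks in kb at each locus with 10 kb on each side, for H3K27ac (left) and H3K27me3 (right), with H69M beside H69 and 1 library per bar, so that no error can be drawn. NFIB has 18.3 kb of H3K27ac in H69M and 9.52 kb in H69, and POU2F3 has 3.01 kb of H3K27me3 in H69M and 1.35 kb in H69.

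Sharing of the H3K27ac sites at the 5 loci varied with their score. In H69M 14 of 26 peaks had a counterpart in H69 (53.8%, exact 95% binomial interval 33.4 to 73.4, for counting error only). The other 12, or 46.2%, had none, close to the 48.4% of all peaks. Neighbouring peaks are not independent, and of the 26 peaks 14 lay at NFIB and 6 at FOXA1. In H69 14 of 17 had a counterpart in H69M (82.4%, 56.6 to 96.2) and 3, or 17.6%, had none, against 22.5% of all peaks. All 7 ceiling peaks of H69M and all 7 of H69 were shared, and over the whole lists 98.5% of the ceiling peaks in H69M and 99.9% of those in H69 were. None of the 5 H69M peaks and none of the 3 H69 peaks with scores under 100 had a counterpart, against 20.3% of such peaks with one in the whole H69M list and 51.1% in the whole H69 list.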

How the data were processed

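H3K27ac and H3K27me3 ChIP-seq of H69M and H69 was deposited as 1 peak list per library. The submitters' processing notes name Bowtie2, SAMtools 0.1.19 and the build hg19. Peak names carry the word MACS, and no MACS version, settings or use of the inputs is stated in these sources. The deposited score of each peak was the authors' own, has no stated definition, and was used only to rank, describe or filter peaks. Members and lists were chosen with earlier results of these data known.

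Gene spans came from the rule that defines the 5 loci. Peaks on chromosomes 1 to 22 and X were read with Python 3.11.15 and pandas 2.3.3 into 1-based positions, clipped to each locus, and counted as shared at 1 bp of overlap or more. Binomial intervals used SciPy 1.17.1. Named for each locus, mark and line were the highest scoring peak, the one nearest the start and the widest, and any other peak was picked with its value known, as were the gap of 100 bp that joins peaks and the windows of equal length. Overlap counting was tested on simulated data. RefSeq (GRCh38.p14) gave neighbour names and promoters, which matched NFIB and FOXA1 by symbol. Alternatives were the span alone, a flank of 100 kb, scores of 100 or more, equal numbers of peaks (the highest scoring H69M peaks), midpoint assignment, other limits of overlap and other windows at the start.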

Additional observations from a re-analysis of the deposited data

How the results depend on the processing

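Of 95 recomputed values, 85 kept their direction and stayed within 1.5 times the reported value or, for a share, within its binomial interval. Among them, the H3K27me3 ratio over the 5 loci was 1.01 with equal numbers of peaks, so that its surplus in H69M was lost, and 2 starts in H69M and 2 in H69 carried H3K27ac when the peak had to cover the start, without ASCL2. The count of peaks with both marks was 1 in each line under every alternative run for it, which did not include the flank of 100 kb. With scores of 100 or more, the share of H69 H3K27ac peaks with a counterpart was 100%, and POU2F3 had no H3K27me3 left in H69, so its ratio could not be computed. Counting a peak of the other line within 1000 bp raised the share of H69M H3K27me3 peaks with a counterpart to 51.9%. Requiring an overlap of 50% of the shorter peak lowered the H3K27me3 share from 22.2% to 11.1% in H69M and from 58.8% to 35.3% in H69. Both are among the 85 because the binomial intervals are wide, so for shares that count is a weak check. The ratio of covered length crossed 1 over the span alone for H3K27ac at SOX9 (1.05) and H3K27me3 at ASCL2 (0.801), with equal numbers of peaks for H3K27me3 at ASCL2 (0.919), and with 100 kb flanks for H3K27ac at ASCL2 (1.32) and SOX9 (2.49). It moved for H3K27me3 at POU2F3 to 1.20 with equal numbers and to 3.90 with 100 kb flanks, and for H3K27ac there to 1.22 with 100 kb flanks. The cause was not tested beyond the construction of these settings, which change the ground or the peaks counted. No paired analysis was possible because each group has 1 library. Unknown depth limits every comparison of peak numbers and widths between the lines.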
